A study of Mus musculus with 24 samples.

Results

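Adrenal glands of XX mice without Prkar1a were set against those of intact XY mice without it, gene by gene over the autosomes. The glands came from KO females and KO males, which the labels give by sex, genotype and castration state; no measured value chose them. They fill 8 of the 24 arrays of the series, 4 in each group. Of the 14411 genes bright enough to test, 13900 lie on an autosome, and every count and named gene here comes from those.

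KO females and KO males carried the same genotype, Prkar1afl/fl;cre/+;mTmG/mTmG: floxed Prkar1a on both chromosomes, a single copy of Cre and a reporter allele on both chromosomes. Cre sits in the Cyp11b2 locus, so it is made in aldosterone-producing cells of the outer cortex and marks their descendants; cells that never expressed it keep Prkar1a in a whole gland. KO GDX males, which are set beside them, had the same genotype and were gonadectomised during the last 2 months. WT females (Prkar1afl/+;cre/+;mTmG/mTmG) had Cre and 1 floxed allele, whereas WT males (Prkar1afl/fl;+/+;mTmG/mTmG) had floxed alleles and no Cre. The sexes therefore differ in genotype among WT mice, but not among KO mice. WT GDX males, of mixed control genotypes, entered no contrast. They took part in the filter, the choice of probe sets, the shared estimate of the spread and the alternative fits over all arrays. Mice of all groups were 7 months old, on a mixed sv129-C57Bl/6 background, and 500 ng of total RNA from whole adrenals went onto each Affymetrix gene array. Values are log2 signals, so a difference of 1 is a 2-fold change.

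As background, protein kinase A is held inactive by regulatory subunits, of which PRKAR1A is one, until cyclic AMP binds them. In humans, inherited loss of PRKAR1A underlies Carney complex, in which the adrenal cortex makes cortisol without its pituitary signal. The adrenal cortex of the mouse differs between the sexes even in normal animals. Its innermost layer, the X-zone, disappears at puberty in males and persists longer in females, and androgens slow the renewal of the cortex. The outermost layer, the zona glomerulosa, makes aldosterone, and the zona fasciculata beneath it makes corticosterone.

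The labels were checked first. Xist stood at 10.19 to 10.33 in KO females and 3.16 to 3.51 in KO males, and the Y-linked Eif2s3y at 4.02 to 4.40 in KO females and 8.87 to 9.11 in KO males. Prkar1a measured 7.30, 7.00, 7.35 and 6.67 in the 4 KO females and 6.89, 8.08, 8.47 and 8.13 in the 4 KO males. One KO male, replicate 1, thus lay among the KO females. The mean was lower in KO females by 0.81 ± 0.23 (log2 ± standard error, limma adjusted p 0.00596), a call that ended when only the groups compared were fitted (adjusted p 0.0666). Every KO female lay below every WT gland, while KO male 3 overlapped the WT females, which held 8.43 to 8.54, against 8.72 to 8.91 in WT males.

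The sexes differed widely within the KO genotype. Of 13900 autosomal genes, 5656 (40.7%) passed a limma adjusted p of 0.05 between KO females and KO males. Of these, 2475 (17.8% of the genes) were higher in KO females and 3181 (22.9%) were lower. Repeating quantile normalization gave 48% of the calls as higher, beside 43.8% here, and a median over all genes of 0.00, beside -0.02. Most differences were small: the median absolute difference was 0.19 on the log2 scale. At least 2-fold differences were found for 557 genes (4.01%), 273 higher and 284 lower, and 8-fold ones for 21 higher and 2 lower. The arrays of KO females and KO males did not overlap for 36.2% of the genes.

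Markers of the medulla moved with this contrast. The medulla, the catecholamine-producing core of the gland, was represented by 14 tested markers, of which 0 rose and 13 fell in KO females (median -1.05, against -0.02 over all genes). Over all genes 17.8% rose and 22.9% fell. Th, the rate-limiting enzyme of catecholamine synthesis, read 10.53, 9.75, 10.41 and 9.97 in KO females and 10.97, 11.33, 11.36 and 11.30 in KO males. Npy, a neuropeptide of chromaffin cells, was lower by 1.41 ± 0.22 (adjusted p 3.1e-05), and Dbh and Pnmt by 1.13 and 0.80. The mean of the list was 8.49 to 9.02 in KO females, 9.54 to 9.83 in KO males, 9.23 to 9.65 in KO GDX males, 9.10 to 9.48 in WT females and 9.16 to 9.66 in WT males. Every KO female lay below every array of the other 4 groups. In whole glands, fewer cells of a type and less RNA per cell cannot be told apart.

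When the medulla mean entered the fit as a covariate, 782 genes (5.63%) passed between KO females and KO males, 484 higher (3.48%) and 298 lower (2.14%). Of the 5656 calls, 747 were kept. Since the medulla means of the 8 arrays do not overlap between the sexes, sex and medulla content cannot be told apart within these arrays, and the part of the medulla in each result was not tested. The counts with that covariate are given beside each gene group. With the adipocyte mean as a covariate 5592 genes passed (40.2%), 2408 higher (17.3%) and 3184 lower (22.9%).

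The largest rise was that of Akr1d1, the steroid reductase that acts on the A ring of bile acid precursors and steroid hormones. It read 11.31, 11.81, 11.73 and 11.63 in KO females and 4.13, 4.55, 5.36 and 7.99 in KO males. All KO females were alike and far above the KO males, among which replicate 4 stood out. The difference was 6.12 ± 0.69 (adjusted p 7.42e-07), or 69.4-fold, and 5.66 to 6.95 on the log2 scale when single arrays were left out. KO males 1 and 2 were under 5, too dim to read, so the fold is uncertain. Akr1c18, the progesterone-inactivating dehydrogenase that marks the X-zone, was at 12.86, 12.77, 12.75 and 12.79 in KO females and 10.90, 6.57, 6.36 and 10.96 in KO males. The KO males fell into a high pair and a low pair, whereas WT males all lay between 4.10 and 4.51. Its difference was 4.09 ± 0.73 (adjusted p 0.000131), and leaving out single arrays gave 3.31 to 4.85. Thrb, a thyroid hormone receptor also expressed in the X-zone, was higher by 1.00 ± 0.16 (adjusted p 4.84e-05), so both tested X-zone genes rose. Akr1d1 was still called with the medulla covariate (adjusted p 0.0193), but neither Akr1c18 nor Thrb was (adjusted p 0.183 and 0.181).

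Among the leading rises, Fetub, a circulating protease inhibitor of the cystatin family, read 11.17, 10.55, 10.28 and 11.11 in KO females and 6.12, 5.35, 5.44 and 5.80 in KO males (difference 5.10 ± 0.41, adjusted p 1.53e-08). Frzb, a secreted decoy receptor for WNT ligands, read 10.97, 10.81, 10.85 and 10.98 in KO females and 5.13, 5.78, 5.91 and 6.45 in KO males (5.08 ± 0.31, adjusted p 3.57e-10). Both genes separated the sexes by several units with little spread inside a group. Obp2a, an odorant-binding lipocalin, was higher by 4.62 ± 0.76, but spread over 8.55, 9.03, 5.50 and 7.90 in KO females. Bpifc, of a family of lipid-binding proteins, was higher by 4.11 ± 0.30. Both were under 5 in all KO males, too dim to read, so the sizes of these changes are uncertain. Chil3, a chitinase-like protein that mouse macrophages secrete, was higher by 4.04 ± 0.48. Its KO male mean of 4.60 lay under 5, with the highest array at 6.14, so this size is uncertain too.

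Enzymes and membrane proteins followed. Cyp2f2, a cytochrome P450 best known from the mouse lung, read 9.76, 9.48, 7.58 and 10.08 in KO females and 6.00, 4.68, 4.83 and 4.78 in KO males, a difference of 4.15 ± 0.56. All KO males but replicate 1 were under 5, too dim to read, so this size is uncertain. A second, dimmer probe set of Cyp2f2 differed by 0.65 in the same direction. Car8, a carbonic anhydrase relative without enzyme activity, was higher by 4.12 ± 0.35 (adjusted p 2.78e-08). Mme, the membrane peptidase neprilysin, read 10.75, 10.59, 10.52 and 10.46 in KO females and 7.16, 6.37, 6.37 and 7.14 in KO males. The rise of Mme came to 3.82 ± 0.45. Sv2c, a synaptic vesicle glycoprotein, Ptprz1, a receptor tyrosine phosphatase, and Tgm3, a transglutaminase, were higher by 3.68, 3.67 and 3.57. Cd1d1, which presents lipid antigens to natural killer T cells, and the cadherin Cdh9 were higher by 3.51 and 3.41. The KO male mean of Cdh9, 4.88, lay under 5, so its size is uncertain. Of these 15 leading rises, Akr1c18, Obp2a and Cyp2f2 lost their call with the medulla covariate.

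**Figure D1:**
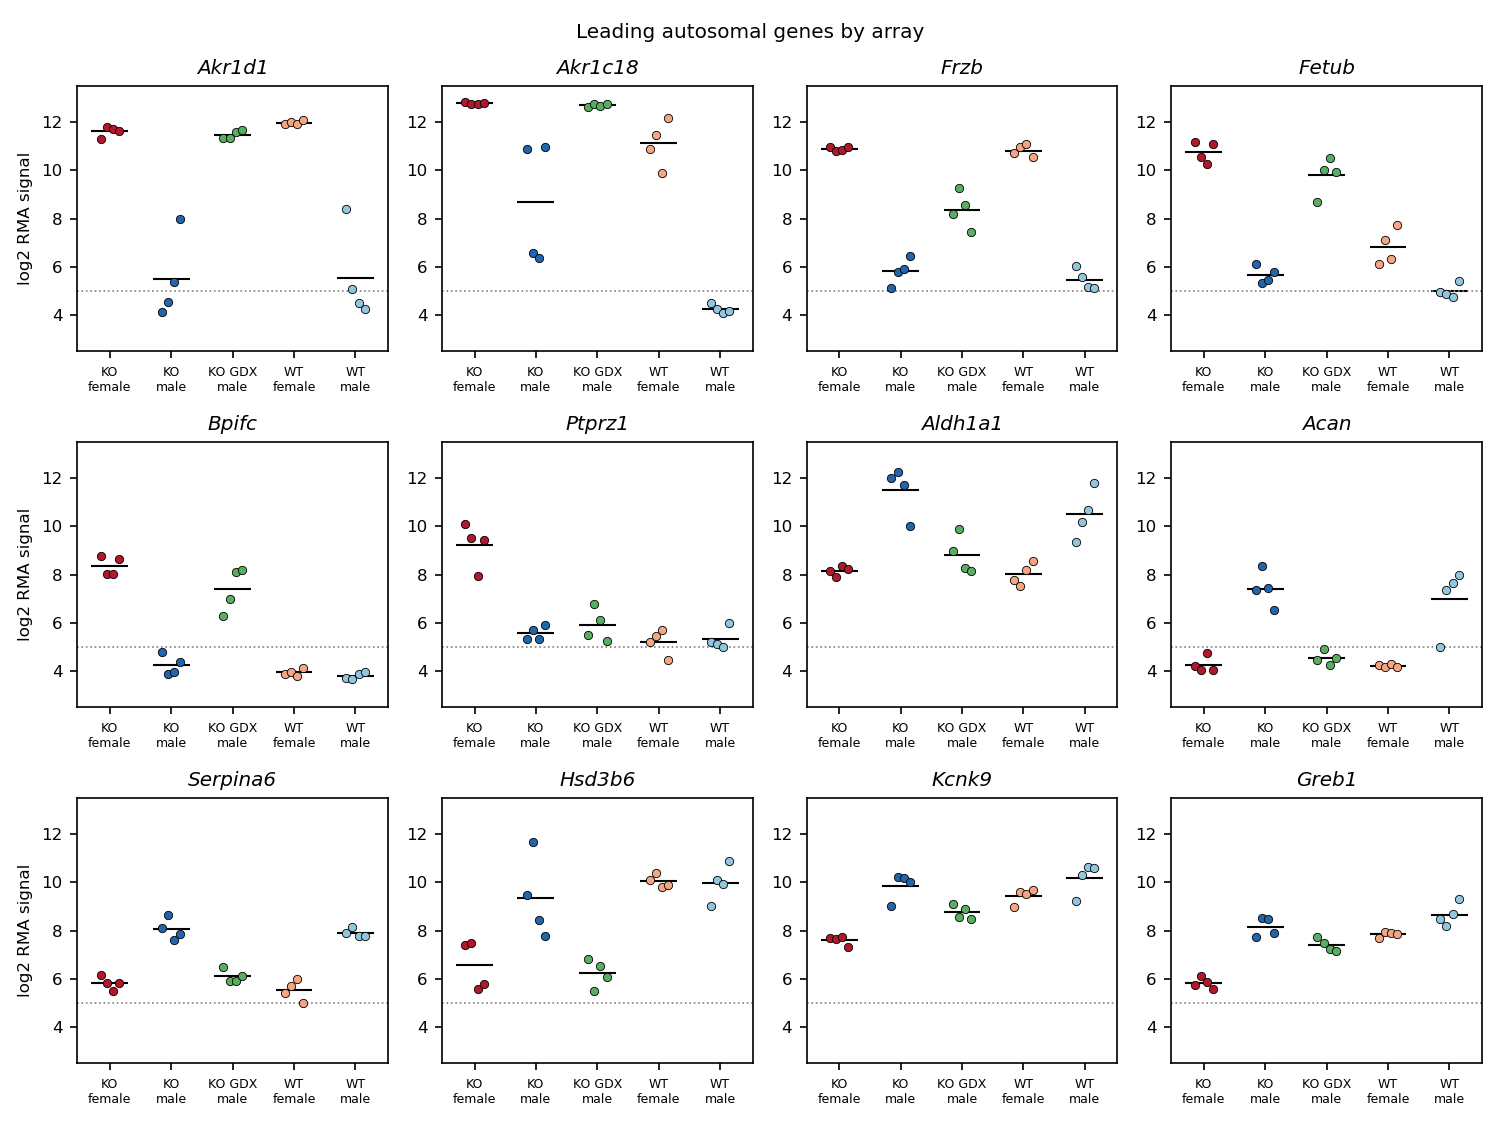
Log2 RMA signal of 12 autosomal genes in each array, by group; points are arrays, black lines are group means, and the dotted line at log2 5 marks the level under which signals were too dim to read. Akr1d1, Frzb and Fetub separate KO females from KO males, and KO GDX males lie with KO females for Akr1d1 but with KO males for Ptprz1.

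The leading falls were shallower. Aldh1a1, a retinaldehyde dehydrogenase of the mouse cortex, read 8.14, 7.92, 8.35 and 8.22 in KO females and 12.02, 12.24, 11.74 and 10.004 in KO males, a difference of -3.34 ± 0.53 (adjusted p 3.65e-05). Its near relative Aldh1a7 was lower by 2.09 ± 0.55, and since the coding sequences are alike, probes could share signal between them. Acan, the cartilage proteoglycan aggrecan, read 4.20, 4.05, 4.77 and 4.05 in KO females and 7.38, 8.35, 7.43 and 6.54 in KO males. Acan was thus unreadably dim in every KO female, and the size of its fall, 3.16 on the log2 scale, is uncertain. It reached 4 arrays over log2 5 only through intact males, so its entry to the test depended on groups where it was higher. Serpina6, the corticosteroid-binding globulin of plasma, was lower by 2.22 ± 0.24 and Greb1, a sex-steroid-induced gene, by 2.33 ± 0.20.

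Potassium channels of the tandem-pore family were among the falls. Kcnk1 read 6.92, 6.61, 6.29 and 6.25 in KO females and 8.92, 9.48, 9.16 and 8.64 in KO males (difference -2.53 ± 0.21, adjusted p 2.07e-08). Kcnk9, which sets the membrane potential of glomerulosa cells, was lower by 2.26 ± 0.27 (adjusted p 1.29e-06). Ly6d, a lipid-anchored surface protein, was lower by 2.03 ± 0.44. The other named falls were microRNA genes, described further on, and the enzymes Hsd3b6 and Cyp11b2. Of the 15 leading falls, the calls of Acan, Hsd3b6, Mirlet7c-2, Mir300, Kcnk9, Cyp11b2, Aldh1a7, Ly6d and Mir376b were lost with the medulla covariate.

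All markers of the zona glomerulosa that could be tested were lower in KO females: of 9, none rose and 9 fell (median -1.72, against -0.02 over all genes; 22.9% of all genes fell). Cyp11b2, the aldosterone synthase whose locus carries Cre, read 8.35, 9.10, 7.47 and 8.72 in KO females and 9.91, 11.09, 10.69 and 10.40 in KO males. No KO female reached the lowest KO male, and the difference was -2.12 ± 0.36 (adjusted p 7.3e-05). Hsd3b6, the hydroxysteroid dehydrogenase of the mouse glomerulosa, read 7.41, 7.47, 5.57 and 5.78 in KO females and 9.46, 11.67, 8.46 and 7.78 in KO males. Vsnl1, a calcium sensor of these cells, and Cacna1h, the T-type calcium channel that drives aldosterone release, were lower by 2.39 ± 0.40 and 1.72. The angiotensin receptors Agtr1a and Agtr1b fell by 0.88 and 1.03. Called with the medulla covariate were 4 of the 9, all lower: Dab2, Agtr1a, Agtr1b and Cacna1h. The mean of the list was 7.76 to 8.19 in KO females and 9.09 to 10.04 in KO males, beside 8.51 to 9.18 in KO GDX males.

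WNT target genes, which report the signal that maintains the outer cortex, showed 0 rises and 9 falls among 10 (median -0.55, against -0.02 over all genes). Over all genes 17.8% rose and 22.9% fell, which holds for the capsule list below too. Axin2, a feedback inhibitor of the pathway, read 7.00, 7.18, 7.04 and 6.98 in KO females and 7.83, 8.13, 8.26 and 7.84 in KO males, a difference of -0.96 ± 0.11 (adjusted p 6.53e-07). Its second, dimmer probe set differed by 0.04 in the other direction. Lgr5, an R-spondin receptor, and Lef1, a transcription factor of the pathway, were lower by 1.09 ± 0.18 and 0.82 ± 0.12. The capsule and its mesenchymal progenitors, which feed cells into the cortex, had 0 rises and 10 falls among 12 markers (median -0.74). Rspo3, the R-spondin ligand made in the capsule, read 7.69, 7.62, 7.61 and 7.60 in KO females and 9.21, 9.23, 9.46 and 9.04 in KO males. The fall of Rspo3, 1.60 ± 0.13, was tight in both groups (adjusted p 1.6e-08). Nt5e, Lum and Dcn, an ectonucleotidase and matrix proteoglycans, were lower by 1.94, 1.35 and 1.10. Under the medulla covariate, 3 WNT targets (Axin2, Lef1 and Znrf3) and 3 capsule genes (Ptch1, Nr2f2 and Rspo3) were called, all lower.

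**Figure D2:**
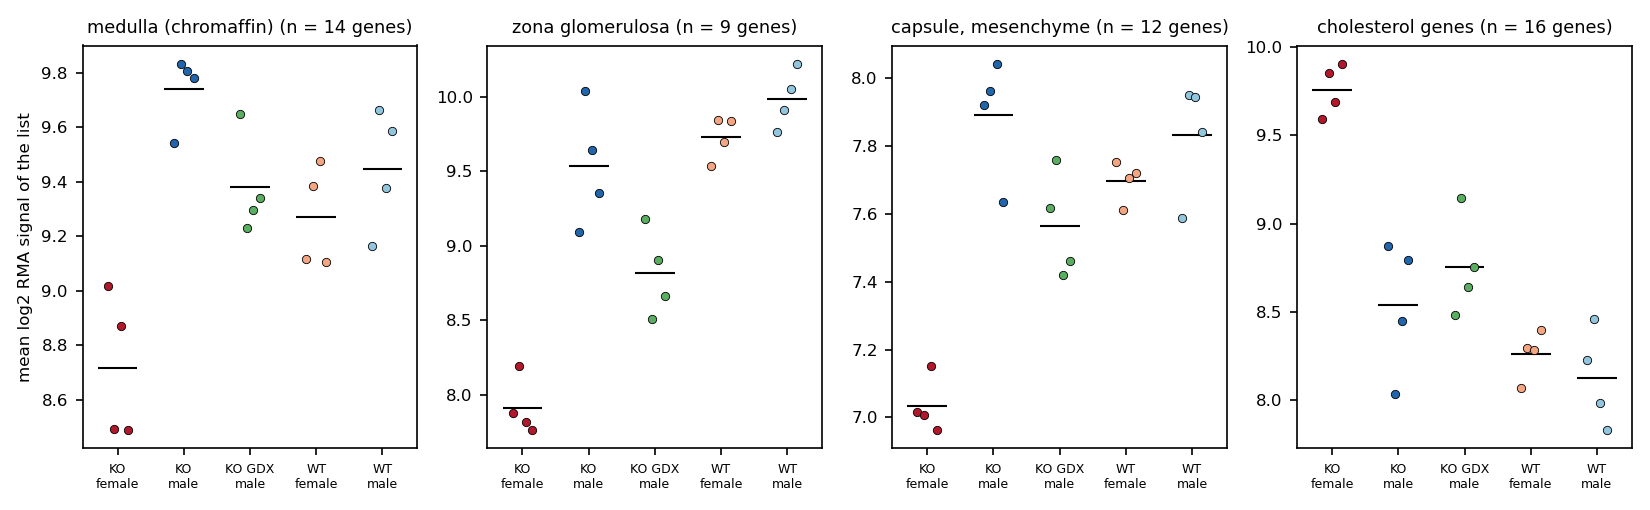
Mean log2 RMA signal over the tested genes of 4 lists in each array, by group; points are arrays, lines are group means, and the vertical axes differ between panels and do not start at 0. KO females lie below all other groups in the medulla, glomerulosa and capsule panels and above all in the cholesterol panel, where they span 9.59 to 9.90 against 8.04 to 8.87 in KO males.

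The genes of cholesterol synthesis and uptake were higher in KO females: of 16 tested, 15 rose and 0 fell (median 1.24; 17.8% of all genes rose). These enzymes make cholesterol, the substrate of every adrenal steroid, from acetate. Hsd17b7, which reduces a sterol ketone late in the pathway, read 8.40, 8.48, 8.38 and 8.83 in KO females and 6.86, 5.53, 6.16 and 6.71 in KO males (difference 2.21 ± 0.31, adjusted p 1.01e-05). Cyp51, the lanosterol demethylase, read 10.08, 10.48, 10.27 and 10.45 in KO females and 8.91, 7.85, 8.25 and 8.84 in KO males (1.86 ± 0.27, adjusted p 1.6e-05). For both genes the lowest KO female stood more than 1 unit above the highest KO male. Fdps and Sqle, which make farnesyl pyrophosphate and squalene epoxide, were higher by 1.75 ± 0.35 and 1.59 ± 0.25, and Hmgcs1, which condenses the early precursor, by 1.48. Srebf2, the transcription factor of the pathway, differed by 0.10 and did not pass (adjusted p 0.48). Under the medulla covariate the median stayed positive at 0.71 but 1 member, Dhcr7, was called.

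Because these genes moved together, the 250 bases before their annotated starts were searched, on either strand, for short motifs. Promoters were given for 12 of the 16 tested genes in the RefSeq table (build GRCm38.p6). All 12, Srebf2 among them, held CCAAT or its reverse ATTGG, against 38.6% of 10775 genes; of genes called at least 2-fold higher in KO females 44.6% held it, and of those at least 2-fold lower 38.6%. The sterol regulatory element TCACCCCAC was found in 1 of the 12, Hmgcs1, against 0.677% of genes. The E-box CACGTG was found in 4 (9.45% of genes) and the cyclic AMP response element TGACGTCA in 0 (2.83%). The steroid response half-site AGAACA was found in 2 (13.1%) and the SF-1 site CAAGGTCA in 1 (1.22%). CCAAT is short and frequent, and none of these matches is a measured binding site. The promoters of the 2 leading enzymes and of Hmgcs1 show them, in the direction of transcription, with these CCAAT matches and the sterol regulatory element in capitals.
Hsd17b7, chr1:169969206-169969455, minus strand: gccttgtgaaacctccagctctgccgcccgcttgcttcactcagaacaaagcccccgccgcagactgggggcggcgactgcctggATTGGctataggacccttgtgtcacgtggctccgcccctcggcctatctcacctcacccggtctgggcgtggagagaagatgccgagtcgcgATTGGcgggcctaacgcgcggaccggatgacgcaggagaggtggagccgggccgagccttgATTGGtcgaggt
Cyp51, chr5:4104698-4104947, minus strand: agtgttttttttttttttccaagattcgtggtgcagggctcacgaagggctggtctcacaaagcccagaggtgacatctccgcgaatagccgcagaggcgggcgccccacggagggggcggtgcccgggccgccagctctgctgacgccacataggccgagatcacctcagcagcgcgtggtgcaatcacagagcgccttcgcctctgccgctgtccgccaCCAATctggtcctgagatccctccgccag
Hmgcs1, chr13:119690101-119690350, plus strand: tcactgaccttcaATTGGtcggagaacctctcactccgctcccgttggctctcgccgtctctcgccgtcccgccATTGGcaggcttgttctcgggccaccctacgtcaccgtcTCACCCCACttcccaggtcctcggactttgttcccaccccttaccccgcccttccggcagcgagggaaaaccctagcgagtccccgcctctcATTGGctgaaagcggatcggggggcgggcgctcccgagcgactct

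Of 12 tested genes of the steroidogenic core 7 rose and 0 fell (median 0.22; 17.8% of all genes rose). Mrap, which carries the corticotropin receptor to the cell surface, read 11.11, 11.12, 11.03 and 11.22 in KO females and 10.03, 9.87, 9.87 and 9.85 in KO males (difference 1.22 ± 0.11, adjusted p 9.56e-08). The receptor itself, Mc2r, differed by -0.01 and did not pass. Stard4, a sterol carrier also counted in the cholesterol list, and Scarb1, the lipoprotein receptor, were higher by 0.97 and 0.49, and Nr5a1, the master regulator SF-1, by 0.49. Star, Cyp21a1 and Fdx1 rose by 0.12, 0.27 and 0.35, and the call of Fdx1 was lost with a repeated quantile normalization and without KO female 4 or KO male 2, while Cyp11a1 and Cyp11b1 differed by 0.00 and -0.02 and did not pass. Star stood at 13.13 to 13.18 in KO females and 12.98 to 13.10 in KO males, close to the highest signal of these 8 arrays (13.24 to 13.34), and Cyp11a1 and Cyp11b1 were at 12.74 to 12.86 in both groups, so small differences of these genes cannot be read as stability. Of the core genes, Mrap alone was called with the medulla covariate. Among 5 genes of the zona fasciculata, Mrap and Fdx1 rose and 0 fell, a share near the 40.7% called over all genes. Among 5 genes of androgen synthesis 2 rose and 0 fell, also near that share. They were Hsd17b3, which makes testosterone (1.33 ± 0.29), and Cyb5a, a cytochrome that assists the lyase step of Cyp17a1 (0.88 ± 0.12). The Hsd17b3 arrays of KO females and KO males overlapped, and the KO male mean of 5.02 lay close to the level too dim to read. With the medulla covariate Hsd17b3 alone of these 5 was called (1.91, adjusted p 0.0297). Cyp17a1, the gateway enzyme of androgens, was at 4.92 to 5.70 in KO females and 4.48 to 5.55 in KO males and did not pass.

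Calls in the protein kinase A pathway went in both directions, against 17.8% higher and 22.9% lower over all genes. Of 7 subunits and inhibitors 2 rose and 4 fell: Prkar2a was higher by 0.45 ± 0.07 and Prkaca, a catalytic subunit, by 0.22, whereas Prkar1b and the inhibitor Pkia were lower by 0.84 ± 0.13 and 0.63 ± 0.12. Prkar1a and Prkacb were the other falls. Of 14 phosphodiesterases, which break down cyclic nucleotides, 2 rose and 5 fell. Pde8b, known from human adrenal hyperplasia, read 9.88, 10.03, 9.85 and 9.86 in KO females and 8.91, 8.90, 8.86 and 9.07 in KO males (difference 0.97 ± 0.11, adjusted p 1.12e-06). Pde3a and Pde2a were lower by 0.96 ± 0.11 and 0.94 ± 0.10, each with no overlap between the groups. Pde7a was higher by 0.92 ± 0.22; a second probe set of it differed by 0.23. Of 16 cyclic AMP and immediate early targets 2 rose and 4 fell; the phosphodiesterases and these targets were called at shares near the 40.7% over all genes. Sik1, a kinase induced by the pathway, was higher by 0.79 ± 0.27 and the orphan receptors Nr4a1 and Nr4a3 lower by 1.24 ± 0.46 and 0.81 ± 0.19. The call of Sik1 was lost without KO female 1 or KO male 2, and that of Nr4a1 without any of 5 single arrays. Under that covariate 1 PKA gene (Prkar2a, higher), 2 phosphodiesterases (Pde8b higher, Pde2a lower) and 0 immediate early targets were called.

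Hormone response lists were mixed, read against 17.8% higher and 22.9% lower over all genes. Of 11 glucocorticoid-induced genes 4 rose and 3 fell, among them Ddit4, a stress-induced inhibitor of growth signalling (0.58 ± 0.15), and Angptl4, a lipase inhibitor (-0.58 ± 0.20). Of 7 androgen-response genes 1 rose, the acid phosphatase Acpp (1.77 ± 0.26), and 3 fell, Ndrg1 by 0.86 ± 0.14 the most. Of 9 hormone receptors 1 rose and 3 fell, a share near the 40.7% called over all genes. The glucocorticoid receptor Nr3c1 was lower by 0.36 ± 0.13, and Esr1 differed by -0.07 and did not pass. Of 11 inhibin, activin and gonadal-like genes 0 rose and 3 fell, a share below that 40.7%. Inha, the inhibin alpha chain, read 6.77, 6.92, 7.08 and 7.05 in KO females and 8.22, 8.34, 8.03 and 8.005 in KO males, a difference of -1.19 ± 0.12 (adjusted p 2.49e-07). The groups did not overlap. The calls of Angptl4, Lcn2, Zbtb16 and Nr3c1 did not survive the loss of some single arrays. Called with the medulla covariate were Klf9 (lower) among the glucocorticoid-induced genes, Acpp (higher) among the androgen-response genes, 0 receptors and Inha (lower).

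Detoxifying genes changed in both directions, read against 17.8% higher and 22.9% lower over all genes. Of 11 oxidative stress and glutathione genes 7 rose and 1 fell (median 0.55). Glutathione reductase Gsr, sulfiredoxin Srxn1 and thioredoxin reductase Txnrd1 were higher by 0.78 ± 0.13, 0.72 ± 0.12 and 0.67 ± 0.08. Hmox1, which degrades haem, was the exception, at 6.91, 6.98, 6.58 and 6.89 in KO females and 8.07, 8.40, 8.48 and 8.23 in KO males. Its fall of 1.46 ± 0.16 had an adjusted p of 5.39e-07. Of 15 conjugation and oxidation genes 4 rose and 3 fell, a share near the 40.7% called over all genes. Gsta3, a glutathione transferase that also isomerises steroids in humans, read 8.69, 8.99, 8.23 and 9.12 in KO females and 6.85, 5.72, 5.80 and 5.80 in KO males (difference 2.71 ± 0.23, adjusted p 3.23e-08). Fmo1, a flavin monooxygenase, was higher by 1.94 ± 0.33. Among 15 proliferation genes 1 rose, the spindle checkpoint kinase Ttk (1.37 ± 0.16), and 1 fell, the replication factor Mcm2 (-0.39 ± 0.09). The share of proliferation genes called was well below the 40.7% over all genes. Top2a and Aurkb, further markers of dividing cells, differed by 0.23 and 0.25 and did not pass. Top2a was under 5, too dim to read, in all KO females and KO males. With the medulla covariate, Srxn1, Txnrd1, Gsta3 and Ttk were called higher and Hmox1 and Gstt1 lower.

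**Figure D3:**
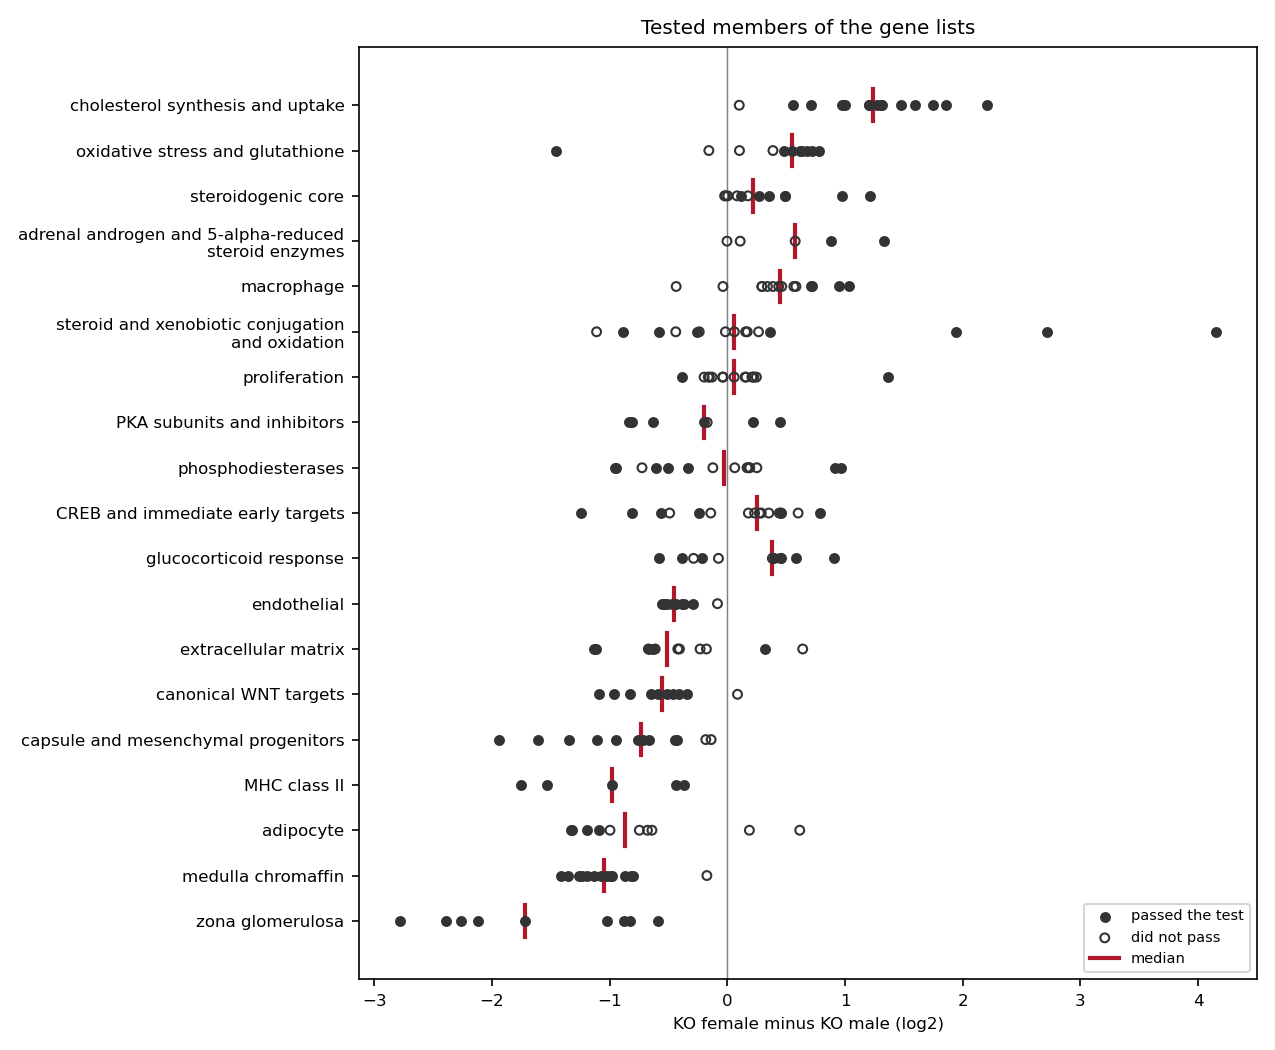
Difference between KO females and KO males (log2) for each tested member of 19 gene lists; filled points passed a limma adjusted p of 0.05 over all genes, open ones did not, and the red bar is the list's median. Cholesterol genes lie to the right of 0 and glomerulosa, medulla, MHC class II and capsule genes to the left of it.

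Markers of other cells in the gland are read against 17.8% higher and 22.9% lower over all genes. Of 10 endothelial genes 0 rose and 9 fell (median -0.46), with the receptors Kdr and Flt1 lower by 0.55 ± 0.10 and 0.52 ± 0.10. Of 12 matrix genes 1 rose and 4 fell, a share near the 40.7% over all genes, with Postn lower by 1.12 ± 0.22 and Mmp2 by 1.13 ± 0.43; the call of Mmp2 was lost without any of 5 single arrays. Of 14 macrophage genes 4 rose and 0 fell: the scavenger receptor Cd163 (1.03 ± 0.28), Lyz2, C1qa and Mrc1. KO female 3 had a macrophage mean of 8.36, against 7.37 to 7.61 in the other KO females and 6.92 to 7.46 in KO males, and the calls of Lyz2 and Mrc1 were lost without that array or without KO male 2. All 5 MHC class II genes fell, 0 rose. H2-Ab1 read 9.59, 7.51, 8.66 and 8.21 in KO females and 10.33, 9.97, 10.50 and 10.17 in KO males, and was lower by 1.75 ± 0.30 (adjusted p 8.86e-05).

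Adipocyte markers varied between arrays. Of 10 adipocyte genes 0 rose and 4 fell, also near the 40.7% over all genes: Adipoq, Retn, Car3 and Lgals12. The mean of the list was 7.06 to 7.81 in KO females and 7.24 to 8.98 in KO males, with overlap. Ucp1 of brown fat read 4.23, 4.56, 4.81 and 6.78 in KO females and 9.53, 4.77, 5.17 and 4.90 in KO males, so that KO male 1 alone carried it strongly. The call of Retn was lost without that array and that of Lgals12 without any of 6 single arrays; the part of fat was not tested. None of 3 lymphocyte, 1 erythrocyte and 2 Schwann cell genes passed in either direction. Of 2 mast cell genes 0 rose and 1 fell, Cpa3 by 1.20 ± 0.28. Under the medulla covariate, 2 endothelial genes and Cpa3 were called lower, and 0 matrix, macrophage, MHC class II or adipocyte genes in either direction.

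The same contrast was made in WT mice. Between WT females and WT males 1063 of 13900 genes passed (7.65%), 509 higher (3.66%) and 554 lower (3.99%), and 126 (0.906%) by at least 2-fold; the arrays did not overlap for 15% of the genes, and the median absolute difference was 0.11. Array weights gave 1871 calls for WT female minus WT male. Genes called in both genotypes in the same direction numbered 734, which is 13% of the KO calls and 69% of the WT calls; 46 were called in opposite directions. The KO and WT differences correlated across genes with r 0.54 over 13900 genes, which are not independent replicates. Akr1d1, Frzb and Cyp2f2 had WT differences of 6.42, 5.36 and 4.06, close to their KO differences of 6.12, 5.08 and 4.15. Akr1c18 had 6.86 in WT, but it was under 5, too dim to read, in every WT male, so this size is uncertain. Among the falls, Acan, Serpina6 and Aldh1a1 were lower by 2.80, 2.36 and 2.49 in WT females. Acan was under 5, too dim to read, in every WT female, so its size there is uncertain. The genes with the largest rises and falls thus include several that WT glands show at about the same size. Cre and the number of floxed alleles differ between WT females and WT males, and sex and genotype cannot be told apart there.

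Whether the difference between females and males itself differed between genotypes was tested as an interaction. This takes in the WT contrast, in which sex, Cre and the number of floxed alleles cannot be told apart. The same limit therefore holds for every interaction value. The interaction passed for 2195 genes (15.8%), 1008 positive (7.25%) and 1187 negative (8.54%), with 271 (1.95%) of at least 1 unit. With the medulla covariate 212 passed for the sex difference in KO minus sex difference in WT, and 6 of 20 interaction calls of leading genes were kept; those of Sv2c, Fetub, Chil3 and Cdh9 were among the 14 lost, and the part of the medulla was not tested. Of the calls, 1987 were also called between KO females and KO males. Bpifc read 8.76, 8.03, 8.03 and 8.64 in KO females and 4.78, 3.89, 3.96 and 4.38 in KO males, whereas WT females and WT males were at 3.80 to 4.15 and 3.69 to 3.95. The interaction was 3.98 (adjusted p 3.07e-05), but Bpifc was under 5, too dim to read, in every KO male and WT array, so neither its WT difference nor this size can be read closely. Sv2c and Ptprz1 behaved alike, with KO differences of 3.68 and 3.67 and WT differences of -0.14 and -0.12. Spink8, a peptidase inhibitor, read 8.78, 6.97, 6.66 and 9.44 in KO females and 4.83, 4.80, 4.41 and 5.09 in KO males. It was at 4.07 to 4.66 in WT females, also too dim to read, as in WT males. Spink8 reached 4 arrays over log2 5 only through KO females. Its entry to the test thus depended on the group where it was higher, and the size of its interaction is uncertain. For St8sia5, a sialyltransferase of gangliosides, the WT contrast was negative at -2.72 and the KO one was 0.97. The KO call of St8sia5 was lost without any of 5 single arrays, and a second probe set of it differed by 0.03.

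Among called interactions the most negative were those of Hsd3b6, Lgals12, Retn, Vsnl1 and Ly6d, at -2.83, -2.37, -2.30, -2.16 and -2.10. All 5 calls were lost with the medulla covariate, and those of Hsd3b6, Lgals12 and Ly6d also without some single arrays. Akr1c18 had -2.76 and did not pass (adjusted p 0.0731). Its WT males were under 5 and its KO females close to the highest signals, so this size is uncertain. Hsd3b6 was at 5.57 to 7.47 in KO females and 7.78 to 11.67 in KO males, against 9.81 to 10.37 in WT females and 9.03 to 10.91 in WT males. Every KO female lay below every array of these other groups. Of the 9 glomerulosa genes 8 had a negative interaction call and 0 a positive one; in WT, 0 rose and 1 fell. Of the 16 cholesterol genes 11 had a positive interaction call and 0 a negative one, and 0 were called in WT. Of 14 medulla genes 11 had a negative interaction call, and 0 were called in WT. For WNT targets and capsule genes the negative interaction calls numbered 6 of 10 and 8 of 12. Over all genes 8.54% had a negative and 7.25% a positive interaction call, and 7.65% were called in WT.

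**Figure D4:**
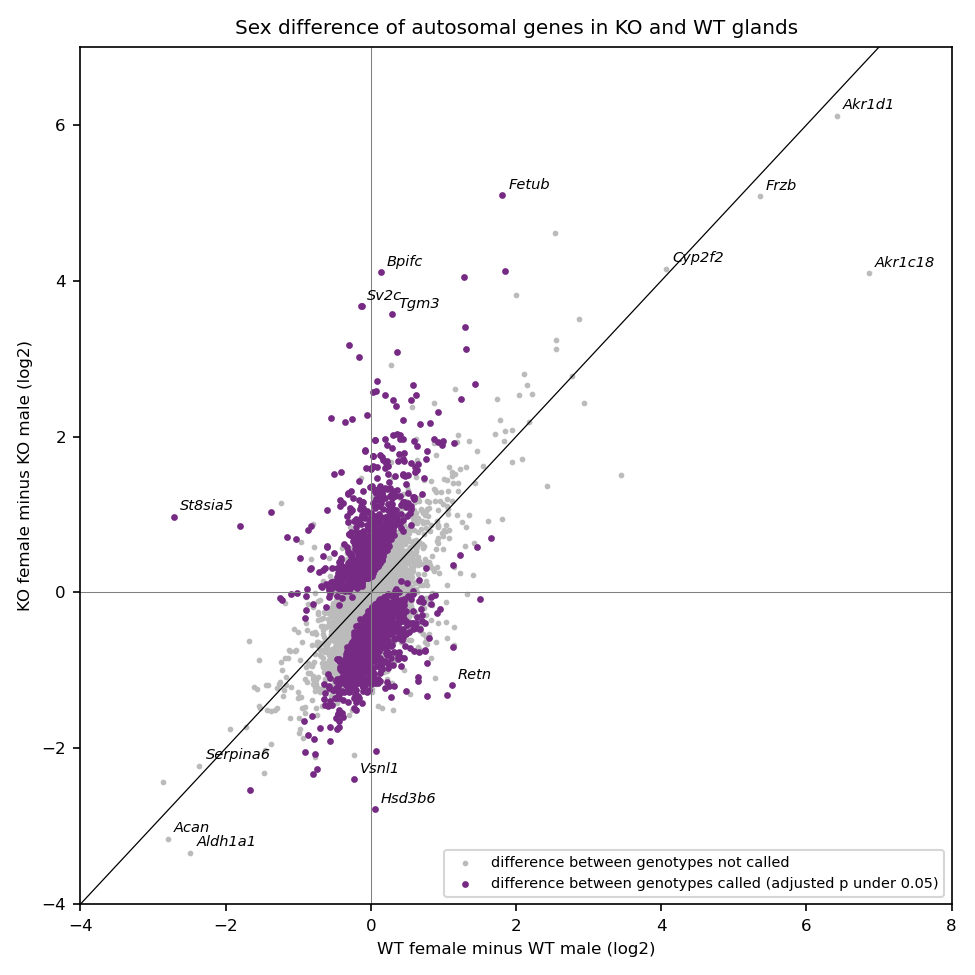
Difference between KO females and KO males (vertical, log2) against that between WT females and WT males (horizontal, log2) for 13900 autosomal genes; purple points passed the test of the interaction, and the line marks equal differences. Akr1d1, Frzb and Cyp2f2 lie near the line, while Bpifc, Sv2c and Tgm3 lie high above a WT difference near 0 and Hsd3b6 below it.

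KO GDX males, which have the XY genotype without testes, were then placed beside the 8 arrays. Between KO females and KO GDX males 2523 genes passed (18.2%), 1200 higher (8.63%) and 1323 lower (9.52%), and the arrays did not overlap for 20.1%; without KO GDX male 1 it was 1523. This contrast shares the KO females with the one above, so values are given side by side. Akr1d1 was at 11.31 to 11.81 in KO females and 11.33 to 11.67 in KO GDX males (difference 0.14, adjusted p 0.917). Akr1c18 was at 12.75 to 12.86 in KO females and 12.62 to 12.76 in KO GDX males (0.09, adjusted p 0.951). Both groups lay close to the highest signal of their arrays, so this small difference of Akr1c18 cannot be read as stability. Serpina6 and Acan differed by -0.28 each and Aldh1a1 by -0.67, and none passed. Acan was under 5, too dim to read, in every array of both groups, so its difference there cannot be read. For these genes KO GDX males lay near KO females and away from KO males. Hsd3b6 was also near KO females, at 5.49 to 6.83.

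Other genes stayed apart. Frzb was at 10.81 to 10.98 in KO females, 7.45 to 9.26 in KO GDX males and 5.13 to 6.45 in KO males, with no overlap among the 3 groups. Ptprz1 and Spink8 were higher in KO females than in KO GDX males by 3.35 and 3.05, and their KO GDX arrays lay at 5.24 to 6.76 and 4.59 to 5.10, near KO males. Spink8 entered the test only through KO females, and its KO GDX arrays lay close to the level too dim to read, so its size is uncertain. Cyp11b2 was lower in KO females than in KO GDX males by 1.83 (adjusted p 0.00151), with KO GDX males at 9.89 to 10.55. Of 16 cholesterol genes 16 were higher in KO females than in KO GDX males and 0 lower, and of 9 glomerulosa genes 0 were higher and 8 lower. Of 14 medulla genes 0 were higher and 10 lower in that contrast, so the medulla mean moves with it too, and its part was not tested. Of 10 endothelial and 5 MHC class II genes 0 passed in either direction. Over all genes 8.63% were higher and 9.52% lower in KO females than in KO GDX males.

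MicroRNA genes were examined after their values were known. These genes encode short RNAs that pair with messenger RNAs through a seed, bases 2 to 8; the array probes report the gene, and not which mature arm is made. Of 181 tested microRNA genes 4 rose and 69 fell in KO females, where 22.9% of all genes fell. A stretch of chromosome 12 between Dlk1 and Dio3os held 33 of them, of which 0 rose and 32 fell (median -1.11). In that stretch, Mir1197 and Mir154 reached 4 arrays over log2 5 only through intact males. Their entry to the test thus depended on groups where they were higher. Of 148 microRNA genes elsewhere 4 rose and 37 fell (median -0.08). These falls were near the 22.9% over all genes, but the rises were below the 17.8% over all genes. With the medulla covariate 0 of the 148 were higher and 7 lower. That stretch is the imprinted Dlk1-Dio3 region, where the long RNAs and microRNAs are made from the maternal chromosome and Dlk1 and Dio3 from the paternal one. The microRNA genes named by the size of their fall carry these mature sequences, with the seed in capitals (RefSeq, GRCm38.p6).
mmu-let-7c-5p, chr15:85706616-85706637 and chr16:77599672-77599693, plus strands: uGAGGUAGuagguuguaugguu
mmu-miR-300-3p, chr12:109724363-109724384, plus strand: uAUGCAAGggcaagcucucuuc
mmu-miR-323-3p, chr12:109712558-109712578, plus strand: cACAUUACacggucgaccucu
mmu-miR-376b-3p, chr12:109723508-109723528, plus strand: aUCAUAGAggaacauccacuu

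The let-7c sequence, shared by Mirlet7c-1 and Mirlet7c-2, has the seed of the let-7 family, and the 4 seeds differ from one another. The 33 microRNA genes of the stretch have 62 mature sequences with 58 distinct seeds. Mir300 read 5.52, 5.12, 4.81 and 5.29 in KO females and 7.32, 7.55, 7.56 and 7.56 in KO males (difference -2.31 ± 0.27, adjusted p 9.72e-07). Mir323 and Mir376b differed by -2.08 ± 0.22 and -2.02 ± 0.26. Mir323 was under 5 in all KO females, as were Mir380, Mir1197, Mir154, Mir496a and Mir377 of the stretch and Mirlet7c-1 and Mirlet7c-2 outside it, so these sizes, and with them the median of the stretch, are uncertain. Mir666 was the 1 of the 33 that did not pass, at -0.12. Mirlet7c-2 and Mirlet7c-1, outside the stretch, were lower by 2.43 ± 0.34 and 2.05 ± 0.22.

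Genes of the stretch that are not microRNAs fell as well, 9 of 9: Dlk1, Meg3, Rian, Dio3os and 5 small nucleolar RNA genes. Rian, a long RNA whose transcript holds several of the small RNAs, read 9.53, 9.19, 9.65 and 9.40 in KO females and 10.44, 10.68, 10.61 and 10.61 in KO males, a difference of -1.14 ± 0.11 (adjusted p 1.78e-07). Dlk1, a membrane protein of capsule progenitors and chromaffin cells, was lower by 0.96 ± 0.17 and Meg3 by 0.65 ± 0.11. In WT, 0 of 33 microRNA genes rose and 18 fell in females, and 0 of the 9 others passed. Over all genes 3.66% rose and 3.99% fell in WT females, so 0 of 9 was near the share over all genes. With the medulla covariate 6 of the 33 and 1 of the 9, Rian, were called lower, and Dlk1 was at 0.03 (adjusted p 0.942); the part of the medulla was not tested.

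**Figure D5:**
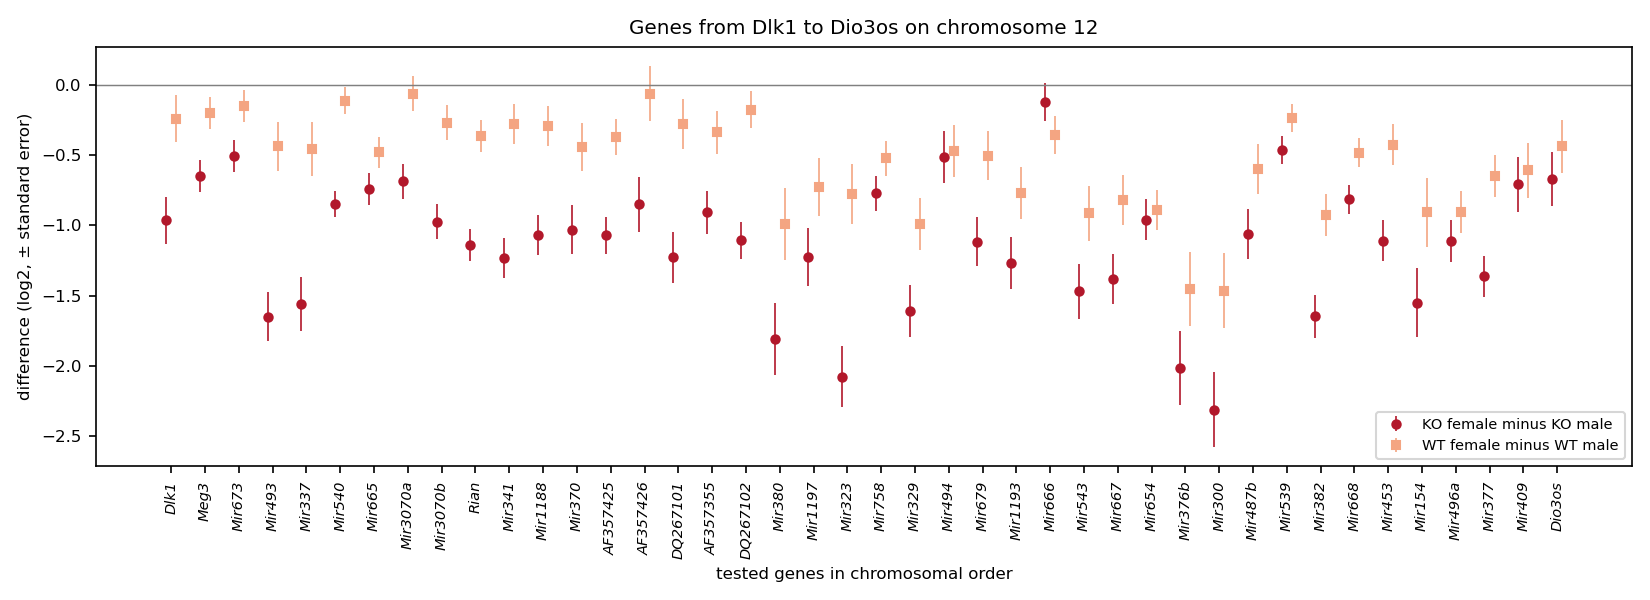
Difference between females and males (log2 ± standard error) in KO (red circles) and WT (orange squares) for the 42 tested genes from Dlk1 to Dio3os, in chromosomal order. All KO values lie below 0, from -0.12 for Mir666 to -2.31 for Mir300, and most WT values lie closer to 0.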

How the data were processed

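RNA of whole adrenals was measured on 24 arrays, 4 in each of 6 groups given by the labels. The deposited values are log2 signals that the authors background-corrected and normalized with RMA, per the submitters' processing notes; the RMA version and genome build: not given in the sources used here. Log2 compresses changes of dim and of very bright genes, and the number of arrays limits the precision. Replicates are separate samples per the labels.

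Of 32202 probe sets, 22943 carried 1 gene symbol, and genes were represented by the probe set with the highest mean (21957 genes). Genes over log2 5 in at least 4 of 24 arrays were kept (14411; 13900 autosomal, 471 on X, 5 on Y, 35 unplaced by RefSeq). The median of an array was 5.20 to 5.29; its probe sets above 5 numbered 17165 to 17779. No scan or hybridisation batch was given.

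Differences were contrasts in 1 limma model (3.58.1, R 4.3.3) of 6 group means over 24 arrays, with 18 residual and 3.41 prior degrees of freedom, tested on simulated data beforehand. Adjusted p-values are Benjamini-Hochberg over the 14411 genes, at 0.05. Named genes were Prkar1a, Cyp11b2, Akr1c18, the 15 largest called rises and falls without overlap, the 5 largest interactions each way (without predicted symbols) and, from each list, at most 4 genes that changed most. The members and lists were chosen with earlier results of these data known. Replicate numbers did not pair the arrays: the correlation of deviations between KO females and KO males of the same number was -0.05, 0.11, 0.09 and -0.01. Alternatives were another normalization, filters, probe set rule, fitted groups, variance prior, replicate block, array weights, marker covariates and leaving out each array.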

Additional observations from a re-analysis of the deposited data

Results flagged for a closer look

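Among 31 leading genes in KO females and KO males (62 groups of 4 arrays), 4 groups had 1 array far from the other 3 by Dixon's criterion, all in KO males; chance gives about 1 in 20. KO male 1 was the array in each case. It was highest for Cyp2f2 at 6.00 and Chil3 at 6.14, and lowest for Mir300 at 7.32 and Kcnk9 at 9.02. The same array had the high Ucp1 and the low Prkar1a.

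For 20 of 36 leading genes the difference between females and males differed between genotypes by the interaction test. WT females and WT males also differ in Cre and floxed alleles, which this test cannot tell apart from sex. With the medulla covariate 6 of the 20 calls were kept: 14 were lost, those of Fetub, Chil3, Sv2c, Cdh9, Hsd3b6, Kcnk1, Greb1, Kcnk9, Mir323, Mirlet7c-1, Ly6d, Lgals12, Retn and Vsnl1. The calls of Hsd3b6, Kcnk1, Lgals12 and Ly6d were also lost without some single arrays, and those of Hsd3b6 and Kcnk1 when only the groups compared were fitted. Fetub, Car8, Chil3, Tgm3 and Cdh9 were higher in females of both genotypes and more so in KO, by 3.28, 2.28, 2.76, 3.27 and 2.10 on the log2 scale; in WT neither Chil3 nor Tgm3 passed. Bpifc, Sv2c, Ptprz1 and Spink8 had interactions of 3.98, 3.82, 3.79 and 3.48, and St8sia5, which had opposite signs in the genotypes, 3.69. Spink8 entered the test only through KO females, the group where it was higher. Negative interactions were those of Hsd3b6 (-2.83), Lgals12 (-2.37), Retn (-2.30), Vsnl1 (-2.16), Ly6d (-2.10), Greb1 (-1.53), Kcnk9 (-1.52), Mir323 (-1.30), Mirlet7c-1 (-1.14) and Kcnk1 (-0.88).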

How the results depend on the processing

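For KO female minus KO male the count of 5656 calls moved by under 1.5 times with a repeated quantile normalization, other filters and probe set rules, fitting only these groups, a trended prior, array weights and the adipocyte covariate, and spanned 4977 to 5624 when single arrays were left out. The medulla covariate gave 782. Replicate numbers did not pair the arrays, and the replicate block gave 5559 calls; of the 108 named calls it ended that of Nr4a1. With single arrays left out, the counts spanned 716 to 1255 for WT female minus WT male, 1533 to 2363 for the interaction (sex difference in KO minus sex difference in WT) and 1523 to 2617 for KO female minus KO GDX male. Array weights gave 1871 in WT. The medulla covariate gave 212 interactions and 381 calls against KO GDX males, where fitting only the groups compared gave 1656. Of the 108 named calls, the medulla covariate kept 37. Npy, Slc18a1, Slc18a2 and Snap25 are among the calls not kept, and they belong to the list that forms the covariate. Their loss was therefore fixed in advance. Sex and medulla content cannot be told apart in these arrays.

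Most values that changed sign were small afterwards. Under the medulla covariate the KO difference became 0.063 for Cyp11b1, 0.050 for Gper1, 0.10 for Slc18a2, 0.0039 for Snap25, 0.082 for Ptprc and -0.015 for Kit. Slc18a2 and Snap25, at -1.26 and -1.23 without the covariate, belong to the list that forms it, so their change was fixed in advance. The interaction became 0.037 for Prkar1a, 0.025 for Frzb, -1.04 for Cyp2f2 (-0.032 with the mean of its probe sets), -0.47 for Cd1d1, 0.32 for Acan, 0.12 for Mir300 and 0.44 for Mir376b. Against KO GDX males it gave -0.59 for Akr1c18, -0.50 for Akr1d1, -0.34 for Cd1d1, 0.26 for Acan, 0.37 for Serpina6 and 0.27 for St8sia5, and the adipocyte covariate gave -0.28 for Akr1c18, -0.88 for Akr1d1 and 0.11 for Acan. In WT, Ptprz1 became 0.089 and Ly6d -0.10 with array weights, and Ly6d -0.20 with the adipocyte covariate. Leaving out single arrays spanned -0.64 to 0.024 for Ptprc and -0.34 to 0.12 for Cd3e in KO. In WT it spanned -0.28 to 0.13 for Ptprz1, -0.27 to 0.36 for Hsd3b6, -0.57 to 0.17 for Aldh1a7 and -0.34 to 0.22 for Ly6d. The interaction spanned -1.24 to 0.53 for Akr1d1, -0.19 to 0.64 for Cyp2f2, -0.68 to 0.31 for Acan and -0.037 to 0.33 for Serpina6, and St8sia5 against KO GDX males -0.46 to 0.15. The causes were not tested. Signals under log2 5 are close to background, so folds against them are uncertain.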

Other observations

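Families found by symbol after the values were seen were also compared between KO females and KO males. Proteasome subunits rose in 21 of 36 cases and fell in 2 (median 0.26), with 0 calls in WT and 16 positive and 2 negative interaction calls. Over all genes 7.65% were called in WT, and 7.25% had a positive and 8.54% a negative interaction call. Of mitochondrial genes, 12 of 39 complex I subunits rose and 1 fell, 6 of 16 ATP synthase genes rose and 0 fell, and 22 of 70 mitochondrial ribosomal proteins rose and 1 fell. Of 48 cytosolic ribosomal proteins 0 rose and 17 fell (median -0.17). Of 25 Hox genes, which give cells their position along the body, 0 rose and 14 fell. Of 64 potassium channel genes 4 rose and 18 fell. Over all 13900 genes 17.8% rose and 22.9% fell, 40.7% together. Apart from the proteasome and Hox genes, these families were called at shares below that 40.7%. Within each of them most calls went in the same direction. With the medulla covariate 5 proteasome subunits were called higher and 1 lower, 1 complex I subunit higher, 0 ATP synthase genes and 0 mitochondrial ribosomal proteins in either direction, 2 cytosolic ribosomal proteins lower, 4 Hox genes lower, and 1 potassium channel gene higher and 3 lower; the part of the medulla was not tested.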
